A study of Mus musculus with 6 samples.

Results

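The proteasome is the protease complex that breaks down proteins tagged with ubiquitin. Its barrel-shaped core is built of alpha rings, which gate the entrance, and beta rings, which hold the cutting sites. A regulatory particle caps the core: its base carries the ATPases that unfold the substrate, and its lid removes the ubiquitin chain. Other activators can replace that cap, and dedicated chaperones assemble core and base. In cells exposed to interferon, inducible beta subunits replace the constitutive cutting subunits and change the peptides offered to MHC class I molecules. In basal keratinocytes the complex clears cell cycle regulators and damaged proteins.

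The genes described here were all probe sets whose platform gene symbol begins with Psm, followed by a letter from a to g and a digit, without the inducible subunits Psmb8 and Psmb9. The rule used symbols only, and no measured value. It found 58 probe sets among 12422 on the array, with 45 symbols. Of these, 56 belong to core subunits, regulatory subunits, activators or assembly chaperones. Psmc3ip, a meiotic recombination protein, and Psme3ip1, a protein that binds the activator Psme3, share only the letters of the symbol. Psmb10, which encodes an inducible core subunit, falls under the rule and is described with the core. A pair of probe sets is annotated to both Psme2b and Psme2 and cannot be given to either gene.

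RNA came from skin keratinocytes of mice with a K15-EGFP transgene, in which the keratin 15 promoter drives enhanced green fluorescent protein (EGFP), a label of the hair follicle bulge where the follicle's stem cells lie. Flow cytometry gave EGFP-high and EGFP-negative cells, both positive for α6 integrin, the product of Itga6 and a surface protein of basal keratinocytes. There were 3 arrays of each group and 1 array per sample. All samples carry the transgene, and the sources used here give neither strain, age nor treatment, nor whether animals were pooled. EGFP marks cells in which the promoter is active, so the EGFP-high gate is bulge-enriched and not a single cell type. Nothing in the labels ties the replicates to separate mice or sorts, so the p-values rest on a spread between samples that may be technical in part.

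The arrays had medians of 69.75 to 76.2 intensity units. Cd34, a surface marker of bulge cells, read 1338.8 to 1579.0 in EGFP-high and 29.4 to 40.9 in EGFP-negative samples on its brighter probe set. The keratins of basal and bulge cells, Krt5, Krt14 and Krt15, read 1.7 to 48.9 on all arrays and were too dim to check the gates. Itga6, the integrin used for the gate, was lower in EGFP-high, at 492 ± 90.0 against 1200 ± 162 (SD, n = 3 each; log2 -1.26, SE 0.18, limma adjusted p = 0.00449), also without any 1 array. Of the other 5 tested basal markers 0 passed: Trp63 had a log2 difference of -0.36, Itgb4 one of 0.083, and Col17a1, Itgb1 and Lamb3 ones of 0.15 to 0.34. Col17a1, a hemidesmosome collagen, read 6527.3 to 8601.8. Of 15 leukocyte markers 14 were on the array and 5 bright enough to test. The summed intensity of all their probe sets was 938 to 1184 in EGFP-high and 812 to 1104 in EGFP-negative samples, and the defining markers Ptprc and Cd3e were below the limit for testing. The T cell and stromal marker Thy1 was lower in EGFP-high (log2 -1.51, limma adjusted p = 0.0382), a call lost without EGFP-high replicate 2 or any 1 EGFP-negative array (up to 0.119). The Thy1 call was also lost with a smaller pseudocount added to the intensities (limma adjusted p = 0.056) and with no filter on low values (0.0857). The other 4 tested leukocyte markers were above 0 and did not pass, Cd52 at log2 0.55, Laptm5 at 0.51, Lcp1 at 0.23 and Cd74 at 0.042. The melanocyte factor Mitf was higher (log2 1.13, limma adjusted p = 0.0147), which was lost without replicate 3 of EGFP-high (0.0596) or of EGFP-negative samples (0.0545). Of the other melanocyte markers only Pmel and Dct were tested, at log2 0.49 and -0.068, and neither passed. Tyr and Tyrp1 were too dim to test. The part of other cells in the results below was not tested.

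No constitutive proteasome gene passed the main test between EGFP-high and EGFP-negative keratinocytes, which was fitted without the replicate number. With that number as a block 2 members passed, both lower in EGFP-high (4.08%, against 10.4% of all tested probe sets). The measured differences were small and mostly below 0. Intensities were taken as log2(value + 19.3), and probe sets with a mean above the 40th percentile were tested, which kept 49 of the 58. The median log2 difference, EGFP-high minus EGFP-negative, was -0.17 over the 49 members, against -0.0017 over all 7453 tested probe sets. Of the 49 members 39 had a difference below 0 (79.6%), as had 50.2% of all tested probe sets. The members ran from -0.60 to 0.71, and 0 exceeded an absolute log2 value of 1, against 5.13% of all. In bulk samples of this kind, fewer cells of a type and less RNA per cell cannot be told apart.

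The test was limma's moderated linear model with Benjamini-Hochberg adjustment over all tested probe sets and a threshold of 0.05, two-sided. Under it 0 of 49 members passed, where 5.19% of all tested probe sets did, 3.02% higher and 2.17% lower in EGFP-high. At an unadjusted p under 0.05 there were 5 members, all lower in EGFP-high: the probe set annotated to Psme2b and Psme2, Psme4, Psmd4, Psmb2 and 1 probe set of Psmb1. In that direction 8.68% of all tested probe sets reached this level. With the replicate number as a block 2 members passed, both lower in EGFP-high, against 10.4% of all tested probe sets (5.13% higher, 5.31% lower): the Psme2b and Psme2 probe set (adjusted p = 0.0229, limma) and Psmd5 (adjusted p = 0.0342, limma). The share of members called was 4.08%. Both calls were lost when the arrays of any 1 replicate number were left out of the blocked fit, which leaves 2 pairs, with adjusted p-values of 0.0605, 0.166 and 0.0692 for the first and 0.0555, 0.157 and 0.16 for Psmd5, without numbers 1, 2 and 3. Without number 3 the lid gene Psmd8 passed instead (limma adjusted p = 0.0494).

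The smallest absolute log2 difference among all called probe sets was 0.61, and 0.39 with the replicate block. Differences of the size measured for most members were therefore not detectable with 3 arrays a group in either fit, and a missed threshold does not show that the levels were equal. The 95% intervals of 46 of the 49 members, from the fit without the block, lay between -1 and 1. Those of Psmd8 and Psmd5 reached below -1, to -1.25 and -1.32, and that of 1 Psmg3 probe set reached above 1, to 1.58.

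**Figure D1:**
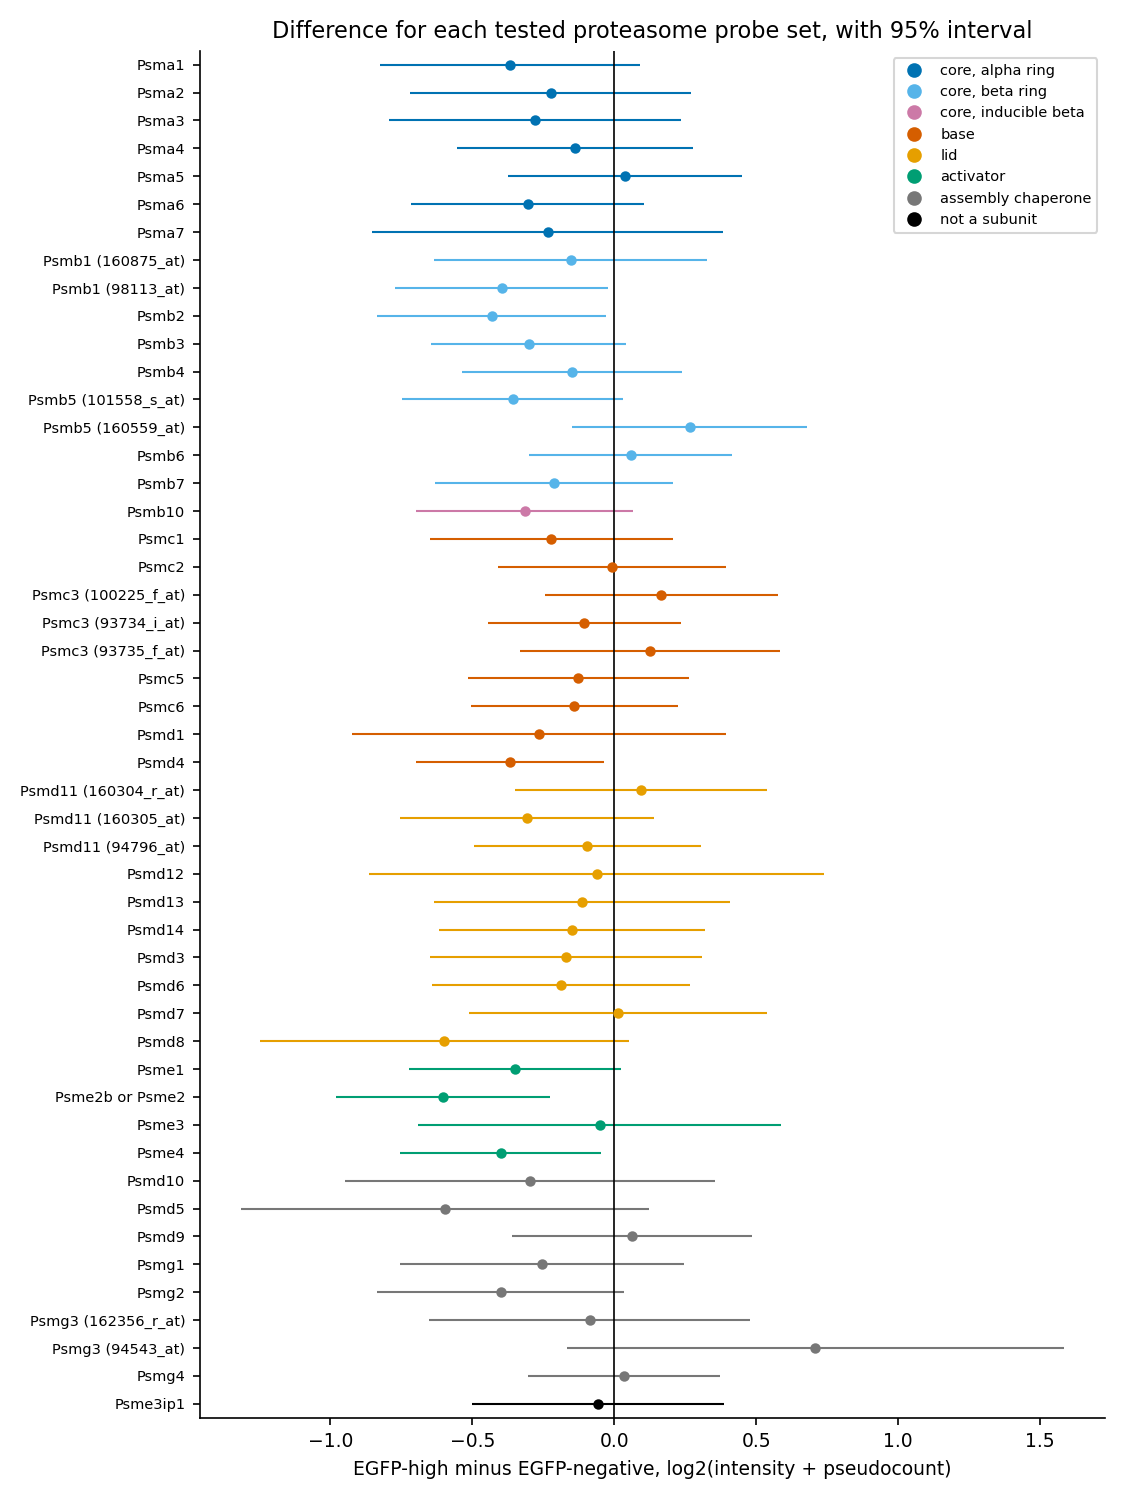
Each point is the EGFP-high minus EGFP-negative difference of 1 tested probe set on the log2(intensity + 19.3) scale, coloured by its role, with its 95% interval as a line (3 arrays a group). Of 49 points 39 lie left of 0, and 5 intervals leave out 0 before adjustment, those of the Psme2b or Psme2 probe set, Psme4, Psmd4, Psmb2 and Psmb1.

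For most members the groups overlapped. Groups did not overlap for 9 of 49 members, all lower in EGFP-high (18.4%), against 11.1% of all tested probe sets lower and 11.6% higher. These 9 were Psmb1, Psmb2, Psmb3, Psmb10, Psmd4, Psme1, the Psme2b and Psme2 probe set, Psme4 and Psmg2. Within the replicate numbers, 22 members were lower in all 3 pairs (44.9%) and 1 was higher in all 3 (2.04%), against 22.9% and 21.9% of all tested probe sets. Members are measured on the same 6 arrays and are not independent of each other, so these shares describe the set and carry no test.

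**Figure D2:**
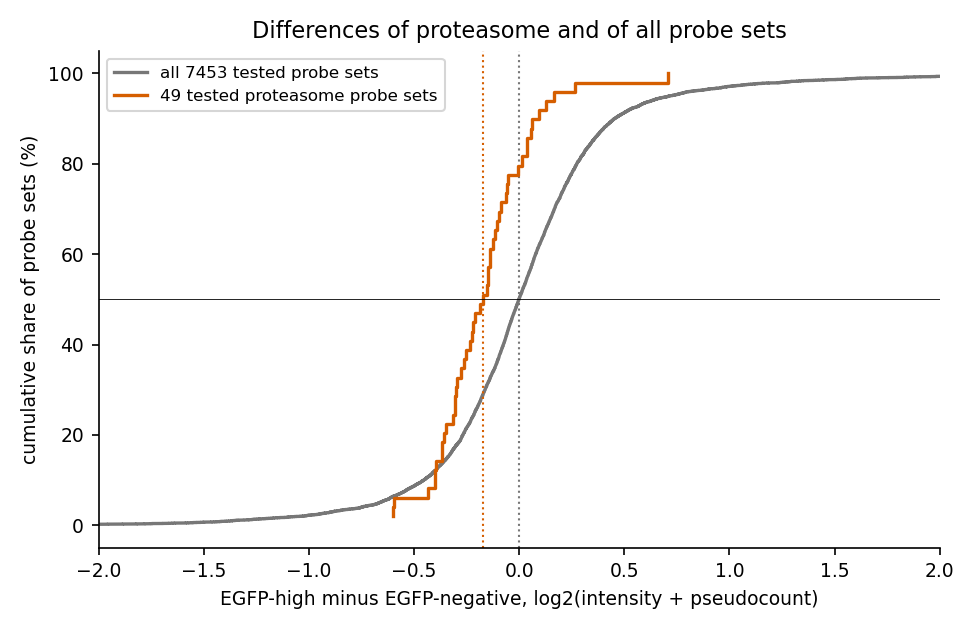
Cumulative share (%) of probe sets by their EGFP-high minus EGFP-negative difference on the log2(intensity + 19.3) scale, for the 49 tested proteasome probe sets and all 7453 tested probe sets; dotted lines mark the medians, -0.17 and -0.0017, and the axis is limited to -2 to 2. The proteasome curve lies left of the other between -0.3 and 0.5 and is steeper.

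The level of the members differed between replicate numbers as well as between groups. The median deviation of the 49 members from their own 6-array means was 0.24, -0.0003 and 0.0034 on EGFP-negative replicates 1, 2 and 3. It was 0.047, -0.25 and -0.099 on EGFP-high replicates 1, 2 and 3. EGFP-high replicate 1 thus stood above EGFP-negative replicates 2 and 3, and the groups overlapped, but within each number the EGFP-high array was the lower one. The median difference within numbers 1, 2 and 3 was -0.20, -0.26 and -0.11, with 36, 40 and 35 of the 49 members below 0. Over all tested probe sets these medians were 0.026, -0.026 and -0.0087.

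**Figure D3:**
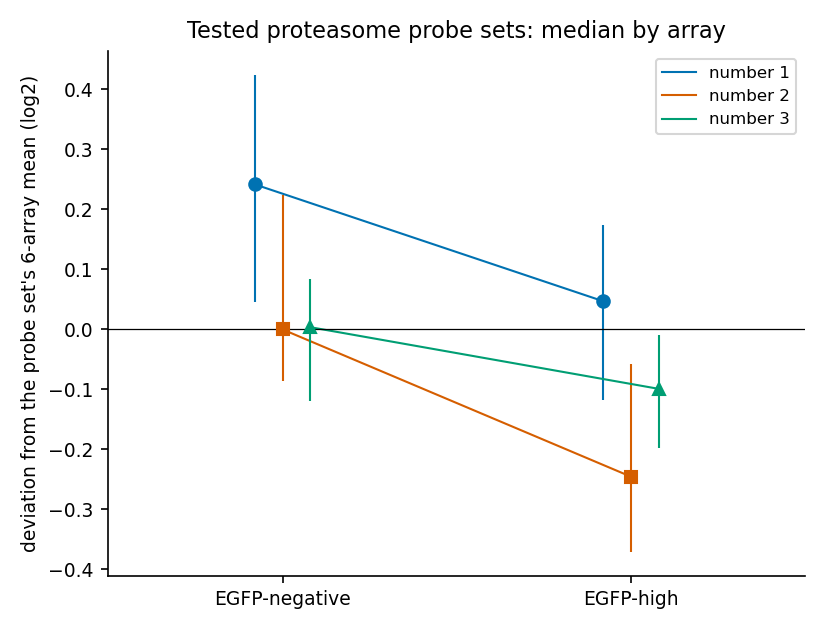
Median over the 49 tested proteasome probe sets of the deviation from each probe set's mean over the 6 arrays, in log2 units, with bars from the 25th to the 75th percentile; lines join arrays of the same replicate number. Each line goes down from EGFP-negative to EGFP-high, and number 1 lies above the others in both groups.

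Promoter sequences from RefSeq (GRCm38.p6) were read because proteasome genes are known to share regulators. Nfe2l1 and Nfe2l2 bind antioxidant response elements with small Maf partners, and NF-Y and ETS factors bind many housekeeping promoters. A window from 250 bases before to 50 after the gene start was held for 35 of 42 symbols searched, in 37 windows. The antioxidant response element core was searched as TGACNNNGC. The CCAAT box was searched by the letters in its name. The core of ETS sites was searched as CCGGAAG. Both strands were read, and in member windows matches of different motifs did not overlap. The ETS core was present in 15 of 37 member windows (40.5%), against 8.86% of all 32851 windows of this length. The antioxidant core was in 6 (16.2%, against 12.4%), those of Psmb5, Psmb6, Psmc6, Psmd9, Psmd12 and Psme4, and the CCAAT box in 12 (32.4%, against 37.4%). All windows include genes of every kind and were not matched for base composition. A match of letters is a description and not a binding site.

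Of the 6 symbols with an unadjusted p under 0.05 or a call with the block, 3 have a single window in the table. They are shown 5′ to 3′ on the gene's strand, with matched motifs in capitals, because they belong to the members nearest to a call.
Psmd5 (chr2:34870913-34871212, minus strand): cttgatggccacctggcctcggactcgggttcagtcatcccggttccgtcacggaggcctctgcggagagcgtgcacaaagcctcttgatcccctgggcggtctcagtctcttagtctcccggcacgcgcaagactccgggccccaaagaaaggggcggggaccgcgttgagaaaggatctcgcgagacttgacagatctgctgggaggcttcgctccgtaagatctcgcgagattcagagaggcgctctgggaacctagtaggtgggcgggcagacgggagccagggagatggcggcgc
Psme4 (chr11:30771525-30771824, plus strand): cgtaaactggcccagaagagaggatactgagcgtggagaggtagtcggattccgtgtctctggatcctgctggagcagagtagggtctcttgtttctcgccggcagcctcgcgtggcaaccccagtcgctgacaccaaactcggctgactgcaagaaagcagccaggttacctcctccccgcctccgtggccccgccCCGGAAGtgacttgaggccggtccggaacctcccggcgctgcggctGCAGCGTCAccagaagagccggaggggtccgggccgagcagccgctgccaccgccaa
Psmd4 (chr3:95042565-95042864, minus strand): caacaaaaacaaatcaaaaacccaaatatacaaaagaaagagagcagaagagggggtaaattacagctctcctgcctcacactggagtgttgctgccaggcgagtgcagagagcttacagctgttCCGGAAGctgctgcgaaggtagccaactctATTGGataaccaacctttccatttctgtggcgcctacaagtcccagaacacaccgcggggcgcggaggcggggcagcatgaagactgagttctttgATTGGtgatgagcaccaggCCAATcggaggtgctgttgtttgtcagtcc
The Psmd5 window holds none of the 3 motifs. The Psme4 window holds an ETS core at bases 198 to 204 and an antioxidant core on the opposite strand at bases 244 to 252. In the Psmd4 window an ETS core lies at bases 126 to 132, and CCAAT boxes at bases 156 to 160, 252 to 256 and 271 to 275, the last on the gene's own strand and the others on the opposite one.

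The alpha ring was measured completely in its 7 standard subunits, Psma1 to Psma7, and 6 of 7 had a difference below 0 with a median of -0.23. Psma1 had the largest difference of the ring. It read 190.3, 149.6 and 151.0 in EGFP-high replicates 1, 2 and 3, and 278.9, 172.7 and 206.6 in EGFP-negative replicates 1, 2 and 3. The highest EGFP-high value lay above the lowest EGFP-negative one, and all 3 pairs were lower in EGFP-high (log2 -0.37, SE 0.20, limma adjusted p = 0.418). Psma6 read 698.5, 571.1 and 573.3 against 945.3, 671.5 and 691.1, also lower in each pair, with overlap through number 1 (log2 -0.30, SE 0.18, limma adjusted p = 0.459).

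Psma5 had the smallest difference, with 444.0, 329.1 and 336.0 in EGFP-high against 399.4, 303.1 and 373.3 in EGFP-negative samples (log2 0.038, 95% interval -0.37 to 0.45). Its sign turned when the arrays were scaled to a common median. The other alpha subunits lay between these: Psma3 (log2 -0.28), Psma7 (log2 -0.23), Psma2 (log2 -0.22) and Psma4 (log2 -0.14). Psma3 and Psma4 were lower in all 3 pairs, and Psma2 and Psma7 in pairs 1 and 2. The suffix of the Psma3 probe set marks possible binding of other family members.

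In the beta ring 6 of the 7 constitutive subunits had a difference below 0 on their brightest probe set, with a median of -0.30. Psmb2, a non-catalytic subunit, read 461.3, 388.0 and 360.1 in EGFP-high and 655.1, 534.4 and 468.5 in EGFP-negative samples. Every EGFP-high array lay below every EGFP-negative one. The means were 403 ± 52.3 and 553 ± 94.6 (SD, n = 3 each; log2 -0.43, SE 0.18, limma adjusted p = 0.255; 0.0687 with the replicate block). With the block and arrays scaled to a common median, the adjusted p was 0.0498 (limma).

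Psmb1 and Psmb3, also non-catalytic, did not overlap between groups either. Psmb1 read 493.4, 433.3 and 527.1 against 757.9, 594.2 and 588.0 on its brightest probe set (log2 -0.40, SE 0.17, limma adjusted p = 0.262). Its second tested probe set gave log2 -0.15, with pair 2 in the opposite direction, and another was too dim to test. Psmb3 read 565.5, 462.5 and 527.6 against 684.6, 644.4 and 596.9 (log2 -0.30, SE 0.15, limma adjusted p = 0.368). Psmb4 was lower in all 3 pairs, by no more than 0.24 (log2 -0.15), and has 2 further probe sets too dim to test.

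The 3 catalytic subunits did not share a direction. Psmb5, which carries the chymotrypsin-like activity, gave opposite signs on its probe sets. The brighter one read 363.6, 289.9 and 340.2 in EGFP-high against 481.6, 450.7 and 361.2 in EGFP-negative samples (log2 -0.36, SE 0.17, limma adjusted p = 0.34). It overlapped only where EGFP-high replicate 1, at 363.6, passed EGFP-negative replicate 3. The dimmer one read 213.0, 176.0 and 141.6 against 129.6, 153.6 and 144.0 (log2 0.27, SE 0.18, limma adjusted p = 0.54). The brighter probe set is of a type with reduced specificity, and the dimmer one is not. No direction can be given for Psmb5 from these 2 probe sets.

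Psmb6, with the caspase-like activity, read 374.8, 303.1 and 374.1 against 319.3, 362.6 and 323.6 (log2 0.058, 95% interval -0.30 to 0.41), the smallest difference among the beta subunits. Psmb7, with the trypsin-like activity, had a log2 difference of -0.21 and was lower in all 3 pairs, by only 0.011 in pair 2. Its probe set, too, may bind related family members.

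Psmb10 encodes the inducible subunit that replaces Psmb7. It read 172.7, 203.4 and 180.3 in EGFP-high and 213.8, 281.0 and 216.0 in EGFP-negative samples, with no overlap (log2 -0.32, SE 0.17, limma adjusted p = 0.404). The inducible partners outside the rule both passed the test: Psmb8 read 234 ± 23.1 against 643 ± 90.1 (SD, n = 3 each; log2 -1.38, limma adjusted p = 0.00177) and Psmb9 178 ± 2.57 against 418 ± 55.5 (log2 -1.14, limma adjusted p = 0.00385). Both also passed without any 1 array. In the fit without the block, Psmb8 was lost without both arrays of number 3 (limma adjusted p = 0.0579). Psmb9 was lost there without those of number 2 or 3 (0.0722 and 0.0649). The difference between Psmb8 or Psmb9 and the constitutive subunits was not tested.

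Among base subunits 9 genes were on the array and 7 were tested, 6 of them below 0, with a median of -0.14. Psmd4, a ubiquitin receptor at the joint of base and lid, had the largest difference. It read 368.3, 335.7 and 350.2 in EGFP-high against 458.9, 492.7 and 426.7 in EGFP-negative samples. The groups did not overlap (351 ± 16.3 against 459 ± 33, SD, n = 3 each; log2 -0.37, SE 0.15, limma adjusted p = 0.232). Psmd1, a scaffold subunit, read 173.1, 381.3 and 333.6 against 260.9, 429.1 and 355.4 (log2 -0.26, SE 0.29, limma adjusted p = 0.719). Here number 1 was the lowest array in both groups.

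The ATPases that unfold substrates had log2 differences from -0.22 to 0.17 over their tested probe sets. Psmc2 read 440.5, 348.4 and 369.8 against 460.7, 379.7 and 329.7 (log2 -0.0077, 95% interval -0.41 to 0.39), the smallest of the base. Psmc1 (log2 -0.22), Psmc6 (log2 -0.14) and Psmc5 (log2 -0.13) were each lower in 2 of 3 pairs.

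The 3 tested probe sets of the ATPase Psmc3 disagreed in sign. The brightest read 263.9, 227.3 and 336.0 against 303.2, 245.4 and 204.4 (log2 0.13, limma adjusted p = 0.811), with pair 3 alone higher in EGFP-high. Another read 218.9, 188.1 and 198.8 against 206.1, 227.5 and 221.6 (log2 -0.10, limma adjusted p = 0.787). The dimmest read 127.9, 114.0 and 115.6 against 126.8, 87.0 and 101.3 (log2 0.17, limma adjusted p = 0.716) and was the only member higher in all 3 pairs. All 3 carry a suffix other than that of the plain probe set type, which for the brightest and the dimmest marks possible binding of other family members. The tested probe sets of Psmb4, Psmd9 and Psmd12, the brighter one of Psmg3 and the dimmest of Psmd11 are also not of the plain type. Psmc4, an ATPase, and Psmd2, the other large scaffold, were too dim to test, at 12.1 to 42.2 and 14.0 to 37.4.

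The lid was measured in 8 genes, 7 of them below 0, with a median of -0.13. Psmd8 had the largest difference, with 261.7, 171.1 and 187.8 in EGFP-high against 500.0, 295.7 and 216.3 in EGFP-negative samples. EGFP-negative replicate 1 was far above the other arrays, and the groups overlapped because EGFP-high replicate 1 passed EGFP-negative replicate 3. The difference was -0.60 on the log2 scale (SE 0.29, limma adjusted p = 0.341; 0.0665 with the replicate block). Without EGFP-negative replicate 1 it was -0.29. Psmd7 had the smallest difference, with 340.2, 175.9 and 209.9 against 259.5, 217.3 and 218.1 (log2 0.013, 95% interval -0.51 to 0.54).

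Psmd11 gave 3 tested probe sets of mixed sign. The brightest read 432.2, 489.2 and 443.1 against 390.9, 572.0 and 513.7 (log2 -0.095, limma adjusted p = 0.848). The second read 251.8, 188.2 and 202.6 against 339.1, 255.2 and 220.7, lower in each pair (log2 -0.31, limma adjusted p = 0.504). The dimmest read 193.8, 160.3 and 129.2 against 178.6, 134.4 and 134.2 (log2 0.095, limma adjusted p = 0.865).

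The other lid genes differed less than their replicates did. Psmd14, the deubiquitinating subunit of the lid, had a log2 difference of -0.15 (SE 0.21), Psmd6 one of -0.19 (SE 0.20) and Psmd3 one of -0.17 (SE 0.21). Psmd13 (log2 -0.11, SE 0.23) and Psmd12 (log2 -0.062, SE 0.35) were nearer to 0. Psmd12, at 38.0 to 112.9, was the member with the least precise estimate beside the dimmer Psmg3 probe set.

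All 4 tested probe sets of activators had a difference below 0, with a median of -0.37. The probe set annotated to Psme2b and Psme2 had the smallest p of all members. Psme2 encodes a subunit of the interferon-inducible activator ring. This probe set read 340.0, 311.0 and 287.0 in EGFP-high against 546.1, 506.5 and 408.7 in EGFP-negative samples. Each EGFP-high array lay below every EGFP-negative one (313 ± 26.5 against 487 ± 70.7, SD, n = 3 each; log2 -0.60, SE 0.17, limma adjusted p = 0.0832; 0.0229 with the replicate block). Taken back from log2 to the linear scale of intensity + 19.3, the EGFP-negative level was 1.52 times the EGFP-high one.

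Psme1 encodes the partner subunit of that ring. It read 307.0, 301.1 and 306.8 against 472.8, 379.2 and 340.0, with no overlap and SDs of 3.35 in EGFP-high and 68.2 in EGFP-negative samples (log2 -0.35, SE 0.17, limma adjusted p = 0.335). Psme4, an activator known for the breakdown of acetylated histones, read 134.7, 135.7 and 124.3 against 163.0, 197.6 and 179.8, also without overlap (log2 -0.40, SE 0.16, limma adjusted p = 0.226). Psme3, the nuclear activator, read 213.0, 207.6 and 142.5 against 222.8, 267.4 and 117.5 (log2 -0.052, 95% interval -0.69 to 0.59), with replicate 3 the lowest array in both groups. The second probe sets of Psme1 and of Psme2b and Psme2 were too dim to test.

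The assembly chaperones ran from -0.60 to 0.71 over 8 probe sets, the widest range of any role. Of 7 genes 5 had a difference below 0 on the brightest probe set, with a median of -0.25. Psmd5, which helps to build the base, read 301.0, 144.6 and 140.5 in EGFP-high and 425.3, 224.1 and 248.4 in EGFP-negative samples. Number 1 was the highest array of both groups, so the groups overlapped, but the differences within pairs were alike: -0.47, -0.57 and -0.74. The difference was -0.60 with an SE of 0.32 (limma adjusted p = 0.401). Leaving out EGFP-negative replicate 1 gave -0.33, and leaving out EGFP-high replicate 1 gave -0.92. With the replicate block the SE was 0.14 (limma adjusted p = 0.0342). The other base chaperones were Psmd10 (log2 -0.30, SE 0.29), lower in all 3 pairs at 34.3 to 93.7, and Psmd9 (log2 0.062, SE 0.19).

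Among chaperones of the core, Psmg2 read 63.9, 87.5 and 86.2 against 113.6, 124.3 and 93.6, with no overlap (log2 -0.40, SE 0.19, limma adjusted p = 0.343). Its partner Psmg1 read 107.8, 72.9 and 123.0 against 110.8, 152.6 and 107.3 (log2 -0.25, limma adjusted p = 0.634), where pair 2 alone gave most of the difference, at -0.90. Psmg4 read 329.9, 280.1 and 280.7 against 280.4, 292.3 and 293.0 (log2 0.035, 95% interval -0.30 to 0.37). Its sign turned, as did that of Psmd7, when arrays were scaled to a common median.

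Psmg3 had the largest absolute difference of all members, on a single array. Its dimmer probe set read 36.9, 57.6 and 157.7 in EGFP-high against 38.5, 40.4 and 31.6 in EGFP-negative samples. Only EGFP-high replicate 3 stood well above the rest (log2 0.71, SE 0.39, limma adjusted p = 0.415), and without that array the probe set fell below the limit for testing. The brighter Psmg3 probe set read 420.8, 489.1 and 252.6 against 408.3, 473.1 and 326.7 (log2 -0.087, limma adjusted p = 0.905), with EGFP-high replicate 3 the lowest of the 6. The probe sets thus went in opposite directions on the same array. Outside the complex, Psme3ip1 read 189.1, 141.3 and 152.3 against 212.9, 146.4 and 148.9 (log2 -0.057), and Psmc3ip read 3.4 to 8.9 and was not tested.

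**Figure D4:**
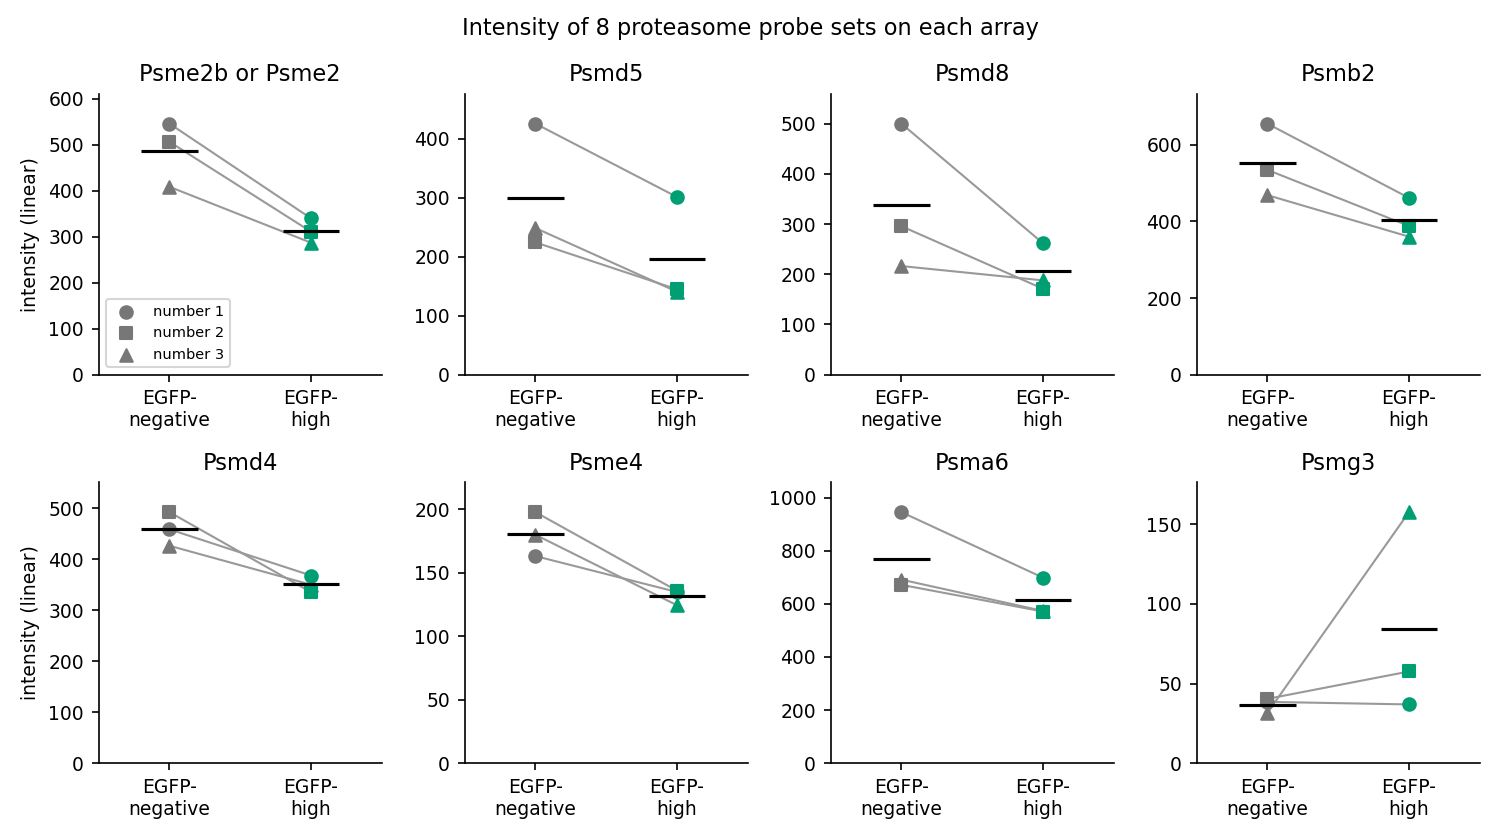
Deposited intensity (linear axis from 0) of 8 probe sets on each array, with symbols for the replicate number, grey lines joining arrays of the same number and black bars for the group means (3 arrays each). The first 7 go down in every pair, with separate groups for the Psme2b or Psme2 probe set, Psmb2, Psmd4 and Psme4. For Psmd5, Psmd8 and Psma6 number 1 is the highest array within each group. The dimmer Psmg3 probe set is high on EGFP-high replicate 3 alone.

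Taken by gene, with each gene on its brightest tested probe set, 36 of 42 symbols were below 0 and the median was -0.22. Core alpha, core beta, base, lid, activator and chaperone genes had medians of -0.23, -0.30, -0.14, -0.13, -0.37 and -0.25. Genes without overlap between the groups came from the beta ring (3, beside Psmb10), the activators (3), the base (1) and the chaperones (1), and 0 from the alpha ring and the lid. Over all tested probe sets 11.1% were without overlap and lower in EGFP-high. The classes hold few genes, 7 tested in the alpha ring and 8 in the lid, so these counts set no class apart. Differences between these classes were not tested. Without the replicate block 0 genes passed in any of them, against 5.19% of all tested probe sets. With the block 1 activator probe set (Psme2b and Psme2) and the chaperone Psmd5 passed. That was 4.08% of members, against 10.4% of all tested probe sets.

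The rest of the ubiquitin system was read from 8 lists of 170 genes, of which 113 were on the array with a symbol of their own and 102 were tested. Of the 102, 1 was higher and 2 lower, against 3.02% and 2.17% of all tested probe sets (5.19% in all), and the median was -0.075. The ubiquitin ligase Wwp2 rose from 264 ± 56.6 to 668 ± 110 (SD, n = 3 each; log2 1.28, SE 0.20, limma adjusted p = 0.00612). The ligase and apoptosis inhibitor Birc3 fell from 104 ± 21.6 to 31.1 ± 14.2 (log2 -1.31, limma adjusted p = 0.0214). Its EGFP-high mean lay below the filter intensity of 44.5, so Birc3 was tested only through its EGFP-negative level. Usp18, an interferon-inducible protease that removes the ubiquitin-like Isg15, fell from 138 ± 21.2 to 63.4 ± 11.9 (log2 -0.93, limma adjusted p = 0.0262). Wwp2 passed without any 1 array. Birc3 was lost without EGFP-high replicate 2, EGFP-negative replicate 1 or EGFP-negative replicate 2 (limma adjusted p up to 0.0848), and Usp18 without EGFP-high replicates 2 or 3 or EGFP-negative replicates 2 or 3 (up to 0.107). Usp18 was also lost with no filter on low values (limma adjusted p = 0.0682), and with the filter at the 60th percentile neither Birc3 nor Usp18 was tested, while Cdc20, the activator of a mitotic ligase, passed as lower (limma adjusted p = 0.0473).

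With the replicate block 8 of the 102 passed, 2 higher and 6 lower, against 10.4% of all tested probe sets. Added were the deubiquitinase Usp2, higher (log2 0.92, limma adjusted p = 0.024), and, lower, Cdc20 (log2 -1.03, limma adjusted p = 0.0034), the substrate receptor Fbxw7 (log2 -0.60, limma adjusted p = 0.0475), Usp22 (log2 -0.68, limma adjusted p = 0.033) and Tnfaip3. Tnfaip3, an inhibitor of NF-kB signalling, read 48.6, 9.6 and 136.0 in EGFP-high against 103.9, 112.7 and 638.4 in EGFP-negative samples (log2 -1.71, limma adjusted p = 0.00576 with the block and 0.268 without). Its EGFP-negative replicate 3 stood far above the others. In the blocked fit Wwp2 and Cdc20 passed without the arrays of any 1 number. Tnfaip3 was lost without number 3 (limma adjusted p = 0.0773), Usp18 without numbers 2 or 3 (0.144 and 0.132), Birc3 and Usp2 without numbers 1 or 2 (0.0665 to 0.11), and Fbxw7 and Usp22 without any 1 number (0.07 to 0.22).

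Of 12 listed proteasome partners 8 were tested, 0 passed and 7 were below 0; Psmc3ip, a member by its symbol, also stands in that list and was not tested. Pomp, the maturation factor of the core, read 648.4, 426.1 and 454.1 against 710.7, 754.1 and 595.7 (log2 -0.43, SE 0.19, limma adjusted p = 0.299). The lid subunit Sem1 (log2 0.030) and the proteasome-bound deubiquitinases Usp14 (log2 -0.12) and Uchl5 (log2 -0.070) were nearer to 0. Of 6 tested genes that control proteasome transcription, 0 passed: Nfe2l1, the factor that raises proteasome genes when the complex is inhibited, had a log2 difference of -0.11 (SE 0.15, limma adjusted p = 0.781) and its relative Nfe2l2 one of -0.28 (SE 0.22, limma adjusted p = 0.596). Called genes numbered 0 of 4 E1 enzymes, 0 of 19 E2 enzymes, 2 of 35 ligase genes, 1 of 20 deubiquitinases and 0 of 10 shuttle factors, beside 5.19% of all tested probe sets. Of the 4 ubiquitin genes listed, 0 were on the array with a symbol of their own, so they could not be analysed here.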

How the data were processed

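RNA of 3 EGFP-high and 3 EGFP-negative samples was measured on an Affymetrix mouse array. The deposited table holds 1 linear intensity per probe set and array. All columns share a trimmed mean of 150.1 (2% cut from both tails), a common level set by the authors before deposit; their software, background method and filters are not stated in the labels. Of 12488 rows 66 controls were left out; of the other 12422, 10833 pair with 1 symbol, 396 with several and 1193 with none in the platform annotation, which can be old. The pseudocount, 19.3, is the 25th percentile of values above 0, so folds of dim genes are understated, and the filter lies near an intensity of 44.5. The main fit used limma 3.58.1 in R 4.3.3 (lmFit and eBayes with an intensity trend) without the replicate number, with 4 residual and 4.96 prior degrees of freedom, and was tested on simulated data. There it called 0 of 65 changes of 0.5 on the log2 scale, 35 of 64 changes of 1 and 50 of 54 changes of 2. False calls numbered 5. The 95% intervals are limma's, unadjusted. The number of arrays limits the precision.

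Deviations from group means correlated at 0.336, 0.368 and 0.305 between arrays of the same number in the titles, and at -0.0629 or below otherwise. Deviations within a group sum to 0 for each probe set, so values above 0 for equal numbers force lower ones elsewhere. The lower values therefore add no evidence for pairs. Each correlation between equal numbers was above 0.1, and equal numbers count here as pairs. The main p-values, SEs and intervals still come from the fit without the block. Blocked values are printed where they change a call, and for Psmb2 and Psmd8. The block lowered the SE of most members, for Psmd8 from 0.29 to 0.17, though that of Psmg1 went from 0.22 to 0.23. Intervals printed here are thus wider for most members than those of a paired fit would be. A gene stands on its brightest tested probe set. Members were named in full where they passed without or with the block, had the largest or smallest difference in their role, or had probe sets of opposite sign; other named genes of the ubiquitin system passed one of the fits, and any others were picked after their values were seen. Members and lists were chosen with earlier results of these data known. Alternatives were the pseudocount, filter, array scale, trend, block and arrays left out. No column of the table was left unused.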

Additional observations from a re-analysis of the deposited data

How the results depend on the processing

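No member passed, in either direction, under another pseudocount, filter or array scale, without the intensity trend, or without any 1 array. The exceptions were the fits with the replicate block, with 2 members lower, the block with quantile normalization (2) or median scaling (3), and the block without both arrays of number 3 (1). The block raised all probe sets called from 225 higher and 162 lower to 382 and 396, and the ubiquitin system genes called from 3 to 8. It gave 368 higher and 353 lower with quantile normalization, 341 and 482 with median scaling, with 9 ubiquitin system genes in each, and 388 and 356, with 5 such genes, without number 1. Without number 2 the blocked fit gave 224 higher, 191 lower and 3 such genes, and without number 3 it gave 199, 185 and 4. Without any 1 array the calls ranged from 106 to 265 higher and from 85 to 234 lower, the fewest without EGFP-high replicate 3, and the ubiquitin system genes from 1 to 3. Without both arrays of number 2 there were 85 higher, 46 lower and 0 ubiquitin system genes, and without those of number 3 there were 43, 14 and 0; fits without both arrays of a number, and fits that join the block with another choice, were added after seeing the data. The members' median log2 difference stayed below 0 throughout, from -0.10 (without number 2) to -0.24 (without EGFP-high replicate 1). It was -0.18 without Psmc3ip and Psme3ip1, and -0.22 with probe sets of the plain type only. The median by gene was -0.13 to -0.27 without any 1 array, -0.12 without number 2 with or without the block, and -0.20 with the mean of a gene's probe sets. The sign of uncalled members turned for 3 of 49 with median scaling, for 4 to 8 without 1 array, and for 3 to 7 without both arrays of a number.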
